A study of Mus musculus and Homo sapiens with 12 samples.

Results

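The elements described are the youngest primate copies of the L1 retrotransposon, those annotated as L1HS, L1PA2, L1PA3, L1PA4 or L1PA5 in the human (hg38) repeat table. They were chosen by the subfamily name alone and numbered 39318 of the 3919868 elements of that table, and of the 7078039 elements of the human and mouse tables together. L1HS contributed 1577 elements, L1PA2 4910, L1PA3 10552, L1PA4 11539 and L1PA5 10740. The measurement was meRIP–seq, in which fragmented chromatin-associated RNA (caRNA) is pulled down with an antibody against 5-methylcytosine (m5C) and sequenced. The libraries came from K-562, a chronic myeloid leukaemia cell line, either wild type (WT) or knocked out for TET2 (TET2 KO), with 3 immunoprecipitated (IP) libraries per genotype and no other treatment. TET2 is an enzyme that oxidises m5C in RNA and DNA, and comparing the genotypes asks how the m5C-bound fraction of these RNAs differs when it is missing. The KO line was a gift from another laboratory, and how many clones it represents is not given in the sources used here. One label field of the KO libraries writes the line as K563 while the titles have K562, and the former was taken as a slip. The table holds repeats only, so neither the loss of TET2 nor the identity of the line could be checked from gene levels.

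L1 is the only retrotransposon that still moves by itself in the human genome. A complete copy carries an internal promoter, a first open reading frame for an RNA-binding protein and a second (ORF2) for an endonuclease and reverse transcriptase. L1HS is specific to humans and holds the copies that are still active, whereas L1PA2 to L1PA5 are successively older lineages whose copies have gathered mutations. Most insertions are truncated at the 5′ end because reverse transcription starts at the 3′ end and often stops early. L1 transcripts are abundant among the RNAs that stay on chromatin, either from L1's own promoter or as part of introns.

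The sequence similarity of these subfamilies sets how well their reads can be told apart. When each element was divided into overlapping 100-base windows, the median share of windows found in no other L1HS to L1PA5 element was 11.6% for L1HS, 33.3% for L1PA2, 53.2% for L1PA3, 74.5% for L1PA4 and 85.9% for L1PA5. Such windows are called an element's own sequence below, although matches to older L1 or to the rest of the genome were not counted. The deposited counts are fractional. Of the non-zero values, 4.47% were whole numbers as written for L1HS and 9.72% for L1PA5, against 30.7% for the other elements of the table, so that a subfamily total is better determined than the count of 1 element.

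The base composition of the long elements also graded with subfamily. The median number of CpG dinucleotides in elements of at least 5000 bp was 89 in L1HS, 78 in L1PA2, 66 in L1PA3, 55 in L1PA4 and 51 in L1PA5. Cytosine, the base the antibody reads when it is methylated, made up a median of 22.1% of the bases of long L1HS elements and 21.5% of those of L1PA5. An open reading frame of at least 1200 codons was present in 287 elements, of which 167 were L1HS, 93 L1PA2, 26 L1PA3 and 1 L1PA4. That limit was set near the length of ORF2, and whether ORF2 was complete was not checked.

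The WT libraries held 498145 to 649905 counts over the DNA, LINE, LTR and SINE classes, and the deeper TET2 KO libraries 715023 to 827341. Between 13931 and 17344 young L1 elements had counts in a library, and 24462 of the 39318 had counts in at least 1 library. The remaining 14856 had none. The share of elements with counts was 81.8% for L1HS, 73.3% for L1PA2, 73.1% for L1PA3, 58.3% for L1PA4 and 47.8% for L1PA5. Signal was concentrated in a small part of the elements, as 1221 of the 39318 (3.1%) were enough to reach 50% of the counts. Within a subfamily that part ran from 10.3% of the elements for L1HS to 1.34% for L1PA5. Counts in all 6 libraries were found for 7146 elements.

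Young L1 RNA made up a much smaller share of the m5C-bound repeat RNA in TET2 KO. The 5 subfamilies together took 22.2%, 19.7% and 23.2% of the counts in the WT libraries. They took 10.4%, 11.3% and 12.3% in the KO libraries. All KO libraries were below all WT libraries, and the mean was 21.7% ± 1.79 in WT and 11.3% ± 0.958 in KO (SD, n = 3 each), a log2 difference of −0.94. A two-sided exact permutation test gave p = 0.1 (Benjamini–Hochberg 0.25 over the 5 single-value tests of this kind), and 0.1 is the smallest value that 3 against 3 libraries allow. FordPrefect, a subfamily of DNA transposons, moved the other way and is part of the denominator, at 8.86% ± 1.44 of the counts in WT and 23.4% ± 0.314 in KO. With FordPrefect left out of the total, the young L1 share was 24.0%, 21.8% and 25.7% in WT and 13.5%, 14.8% and 16.1% in KO. The groups remained apart and the log2 difference was −0.69. Within LINE counts alone it was −0.56, and young L1 took 42.6% ± 1.99 of these in WT and 28.9% ± 2.63 in KO (SD, n = 3). No input or spike-in columns are in the table. A lower share in the IP may therefore be less m5C on these RNAs or less of these RNAs on chromatin, which cannot be told apart here, and each value is relative to the other repeats of the library.

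Each of the 5 subfamilies was lower in all KO libraries than in all WT libraries, by between 0.84 and 1.18 on the log2 scale. The levels that follow are counts per 1000000 counts (CPM) after TMM scaling over all subfamilies, and the tests are edgeR's quasi-likelihood test, with Benjamini–Hochberg adjustment over the 573 subfamilies tested. L1PA2, L1PA3 and L1PA4 passed an adjusted p of 0.05, whereas L1HS and L1PA5 did not. So 3 of the 5 were called lower, where 0.698% of all tested subfamilies (4 of 573) were called lower. The other subfamily called lower was AluY, with a log2 difference of −0.93 ± 0.17 (SE, adjusted p = 0.04, edgeR). All 5 were non-overlapping, as were 6.63% of all tested subfamilies in that direction. Because the young L1 elements share sequence, reads may be divided among the 5 subfamilies, and their results may not be independent. The median log2 difference was −1.07 over the 5 subfamilies and 0.03 over all 573.

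L1HS, the subfamily with active copies, stood at 30424, 33188 and 54463 CPM in WT and 16217, 19202 and 20975 CPM in KO. The third WT library was far above the other two, and the lowest WT library was above the highest KO library. The log2 difference was −1.07 ± 0.23 (SE, adjusted p = 0.085, edgeR), and it was −0.77 without the third WT library. L1PA2 had 57667, 59793 and 86168 CPM in WT and 27005, 28503 and 34652 CPM in KO. As for L1HS, the third WT library was the highest, and its log2 difference was −1.18 ± 0.18 (adjusted p = 0.0185, edgeR).

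L1PA3 held the most even WT levels of the 3 most abundant subfamilies, with 72948, 64207 and 69193 CPM, against 29760, 28186 and 38836 CPM in KO. Its log2 difference of −1.09 ± 0.14 had the smallest adjusted p of the 5 (0.0089, edgeR). L1PA4 stood at 36467, 29841 and 36580 CPM in WT and 16788, 20300 and 19504 CPM in KO. Its difference was −0.86 ± 0.16 (adjusted p = 0.04, edgeR). L1PA5, the oldest of the group, had 19532, 17510 and 19464 CPM in WT and 8755, 12840 and 10039 CPM in KO, a difference of −0.84 ± 0.21 (adjusted p = 0.149, edgeR). Its second KO library was the closest of its KO libraries to the WT range without reaching it.

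The direction was the same for all 5 subfamilies in every alternative fit, but the calls rested on few libraries. Without the second WT library, the first KO library or the second KO library, none of the 5 was called by edgeR, although each of the 5 had an unadjusted p under 0.05 in these fits. With all libraries each of the 5 had one too, as did 6.11% of all tested subfamilies in that direction. Without FordPrefect only L1PA3 was called (adjusted p = 0.0174, edgeR), while the DESeq2 Wald test called all 5, and 5.24% of all subfamilies, lower.

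**Figure D1:**
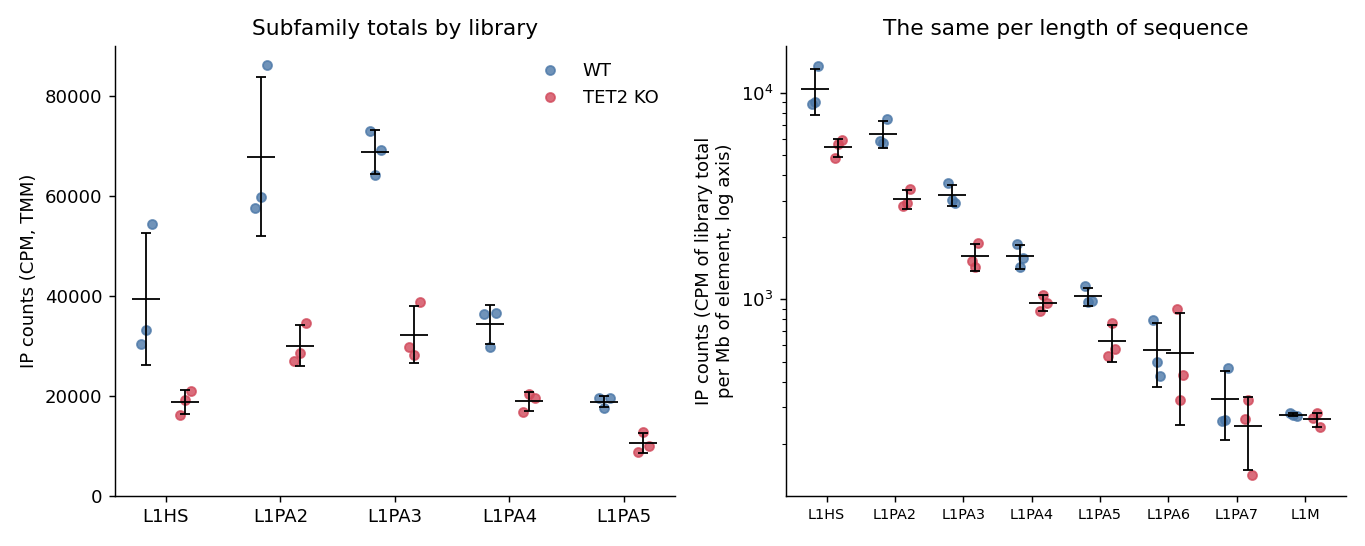
Left, IP counts of each subfamily in each library (CPM after TMM). Right, CPM of the library total per Mb of annotated element on a log axis, with L1PA6, L1PA7 and the ancient L1M elements for comparison. Points are libraries, horizontal bars means and vertical bars SD (n = 3). All TET2 KO points of L1HS to L1PA5 lie below the WT points, whereas those of L1PA6, L1PA7 and L1M overlap them.

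Per length of sequence, the IP counts were lower the older the subfamily, in both genotypes. Expressed as CPM of the library total per Mb of annotated element, L1HS had 8817, 9052 and 13430 in WT, L1PA2 5869, 5727 and 7461, and L1PA3 3648, 3022 and 2944. L1PA4 had 1858, 1431 and 1586 and L1PA5 1156, 976 and 981. No library of one subfamily overlapped the next in this order, and the same held in KO, where the means were 5456 ± 551, 3062 ± 310, 1614 ± 236, 964 ± 85.2 and 627 ± 127 (SD, n = 3). The mean level of L1HS per Mb was 10.1 times that of L1PA5 in WT and 8.71 times in KO. L1PA6, the next older lineage, had a mean of 572 ± 193 in WT and 553 ± 307 in KO on this scale, and L1M 277 ± 4.61 and 263 ± 20.5. The share of windows found in no other young L1 element rises in the same order as these levels fall, and the part of shared reads in the gradient was not tested.

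The older L1PA and L1PB lineages had a median difference closer to 0. The 20 other L1PA and L1PB subfamilies tested had a median log2 difference of −0.18, with 11 below 0, where 281 of all 573 subfamilies were below 0, and edgeR and DESeq2 each called 0 of them, with 0 at an unadjusted p under 0.05 in edgeR. In 1 of the 20, all KO libraries lay below all WT libraries. L1PA6 was at −0.15 ± 0.41 (adjusted p = 0.875) and L1PA7 at −0.59 ± 0.42 (adjusted p = 0.55, edgeR). The 84 L1M subfamilies had a median of −0.15, and 0 of them were called by edgeR, with 5 at an unadjusted p under 0.05, while DESeq2 called 5, of which 2 were lower. The difference between young and older elements was tested as a ratio within each library, which is free of library size and of FordPrefect. Young L1 counts were 5.03, 4.63 and 4.50 times the counts of the other L1PA and L1PB elements in WT and 2.00, 3.01 and 2.87 times in KO. The groups did not overlap and the log2 ratio was lower by 0.86 in KO, at p = 0.1, the smallest the two-sided exact permutation test allows (Benjamini–Hochberg 0.25 over 5 tests). Against L1M elements the log2 difference was −0.86 as well. With FordPrefect left out of the total, the L1 elements outside the 5 subfamilies took 24.0% ± 0.548 of the counts in WT and 27.1% ± 1.73 in KO (SD, n = 3). All KO libraries were above all WT libraries, with a log2 difference of 0.17, against −0.69 for young L1 on that scale. Both are shares of the same total, so a lower young L1 share by itself raises the share of the other repeats. Whether the other L1 elements rose apart from this was not tested. Of all L1 counts, the 5 subfamilies took 49.7% ± 1.54 in WT and 35.4% ± 3.39 in KO (SD, n = 3).

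**Figure D2:**
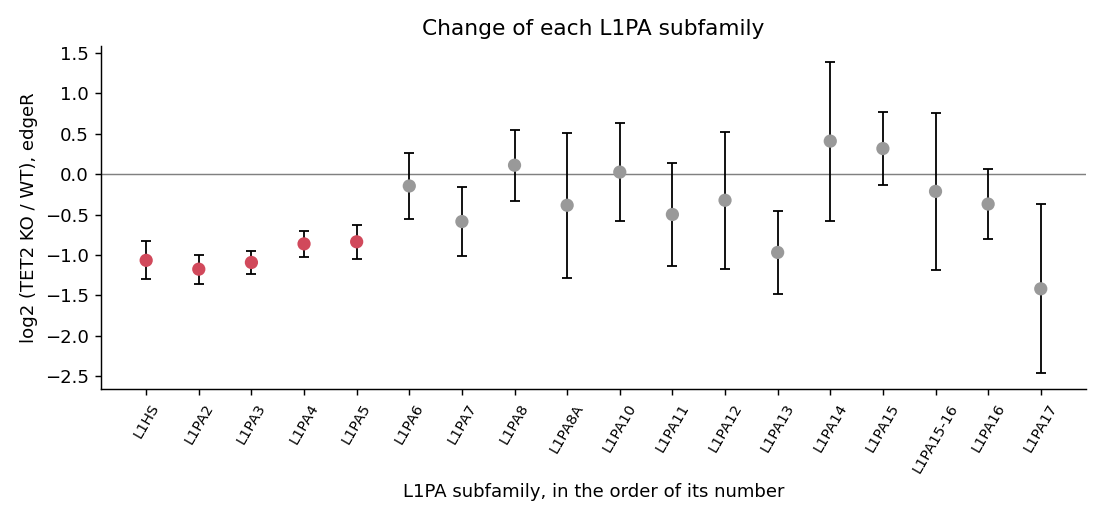
The log2 ratio of TET2 KO over WT from edgeR (vertical axis, bars are SE) for each tested L1PA subfamily in the order of its number. L1HS to L1PA5 (red) lie between −0.84 and −1.18 with narrow SE, and the older subfamilies (grey) spread around 0 with wider SE, L1PA6 at −0.15.

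**Figure D3:**
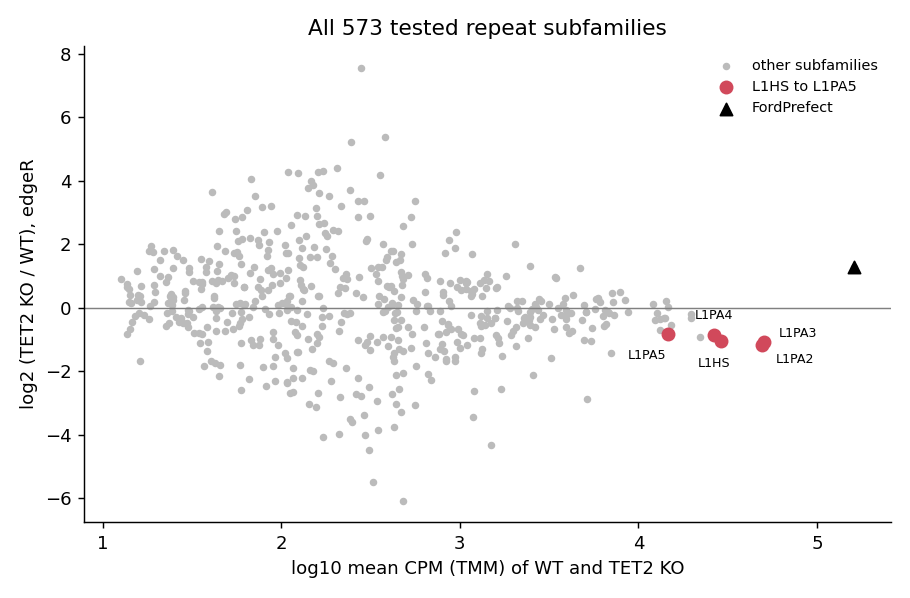
The log2 ratio of TET2 KO over WT from edgeR against the log10 mean CPM for all 573 tested repeat subfamilies. L1HS to L1PA5 (red) are among the subfamilies with the highest counts and all lie below 0, while FordPrefect (triangle) lies above 0.

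Long and short elements were both lower in KO. Elements of at least 5000 bp, close to the length of a complete copy, numbered 359 for L1HS, 1187 for L1PA2, 1848 for L1PA3, 1749 for L1PA4 and 1411 for L1PA5, or 16.7% of the 39318. They took 14.1%, 13.6% and 15.9% of the counts in WT and 6.9%, 7.82% and 8.59% in KO. Shorter elements took 8.18%, 6.15% and 7.23% in WT and 3.48%, 3.52% and 3.71% in KO. The KO libraries were below the WT libraries in both classes, with log2 differences of −0.90 for long and −1.0 for short elements. Shares by class, here and below, are of a total that includes FordPrefect, which was higher in KO. For all young L1 the log2 difference was −0.94 with FordPrefect in the total and −0.69 without it, and single classes were not examined without it. The ratio of long to short counts was 1.72, 2.21 and 2.20 in WT and 1.98, 2.22 and 2.32 in KO. These ranges overlapped and the log2 ratio differed by 0.10 (two-sided exact permutation p = 0.5).

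When the counts of each subfamily were split by length and fitted over all 694 subfamily and length classes, the 10 young L1 classes had log2 differences from −0.73 to −1.29 with a median of −0.89, against −0.0038 over all classes. In all 10 the KO libraries were below the WT libraries, as they were in 8.07% of all classes. All 10 had an unadjusted p under 0.05, as did 6.92% of all classes in that direction, but only short L1PA3 elements were called by edgeR, where 0.144% of all classes were called lower. Short L1PA3 elements had 31326, 24611 and 26331 CPM in WT and 10443, 10912 and 12193 CPM in KO, a log2 difference of −1.29 ± 0.18 (adjusted p = 0.0353, edgeR). That call was lost when any 1 of the 6 libraries was left out. Long L1PA3 elements had 37666, 38370 and 44540 CPM in WT and 18993, 19405 and 26681 CPM in KO, a difference of −0.89 ± 0.18 (adjusted p = 0.103, edgeR). Long L1HS elements, the class that holds the active copies, had 19867, 25408 and 42740 CPM in WT and 11559, 14540 and 15865 CPM in KO, a difference of −1.07 ± 0.30 (adjusted p = 0.222, edgeR).

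Whether long and short elements of a subfamily changed by different amounts was tested within libraries as a length by genotype term. edgeR called 0 of 236 subfamilies (0%), with 12 at an unadjusted p under 0.05, and the DESeq2 Wald test also called 0. The change of long minus that of short elements was −0.15 ± 0.23 for L1HS, 0.06 ± 0.15 for L1PA2, 0.08 ± 0.25 for L1PA4 and 0.05 ± 0.30 for L1PA5 (log2, SE). For L1PA3 it was 0.39 ± 0.17 (unadjusted p = 0.0381, adjusted p = 0.83, edgeR), so the difference seen between its length classes did not hold after adjustment.

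**Figure D4:**
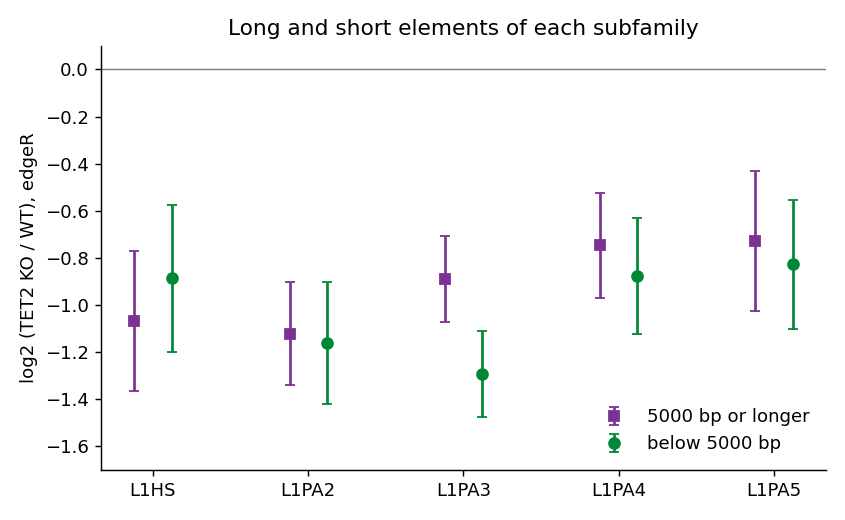
The log2 ratio of TET2 KO over WT from edgeR for elements of 5000 bp or longer (squares) and shorter elements (circles) of each subfamily, with SE as bars. All 10 values lie below 0, and the intervals of long and short elements overlap for every subfamily except L1PA3, at −0.89 and −1.29.

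At a finer scale, the 500 to 1000 bp fragments stood out by size of change. They took 1.32%, 1.25% and 1.34% of the counts in WT and 0.417%, 0.44% and 0.456% in KO, which is a log2 difference of −1.58 between groups that were each tight. In the other 7 length bins, from below 500 bp to 6000 bp or more, the log2 difference ran from −0.74 to −1.32 and the groups did not overlap in any of them. Arranged by where an element begins on the L1 consensus, the 21585 elements that start beyond base 5000 and thus hold only the 3′ end had a log2 difference of −1.35. The bins that start further towards the 5′ end ran from −0.77 to −0.99, and copies that start within the first 200 bases had −0.92. These bins were compared as a description and the difference between them was not tested.

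Elements with an open reading frame of at least 1200 codons were lower by about as much as other long elements. The 287 such elements took 1.63%, 1.64% and 2.65% of the counts in WT and 0.877%, 1.08% and 1.19% in KO, a log2 difference of −0.89 with no overlap. The 6267 other long elements had −0.90. Among the former, the 167 L1HS elements had −0.98 and the 93 L1PA2 elements −0.77, and the KO libraries of both lay below the WT libraries. That separation is in shares of all counts, and whether it holds with FordPrefect left out was not tested. For the 26 L1PA3 elements the groups overlapped, at 0.0729%, 0.0462% and 0.0901% in WT and 0.0297%, 0.0277% and 0.0721% in KO.

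The lower share in KO was present both in elements that share their windows with other young L1 elements and in those that mostly do not. Among elements whose 100-base windows were all found in another young L1 element, the counts took 1.06% ± 0.268 in WT and 0.498% ± 0.0399 in KO (SD, n = 3), a log2 difference of −1.07. Where more than 80% of the windows were the element's own, they took 1.79%, 1.37% and 1.46% in WT and 0.855%, 1.04% and 0.976% in KO. The groups were still apart and the difference was −0.68. The 3 classes in between had −0.90, −1.03 and −0.88. With only the elements that had at least 50% own windows counted, a choice made after seeing the data, the young L1 share differed by −0.84 on the log2 scale.

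**Figure D5:**
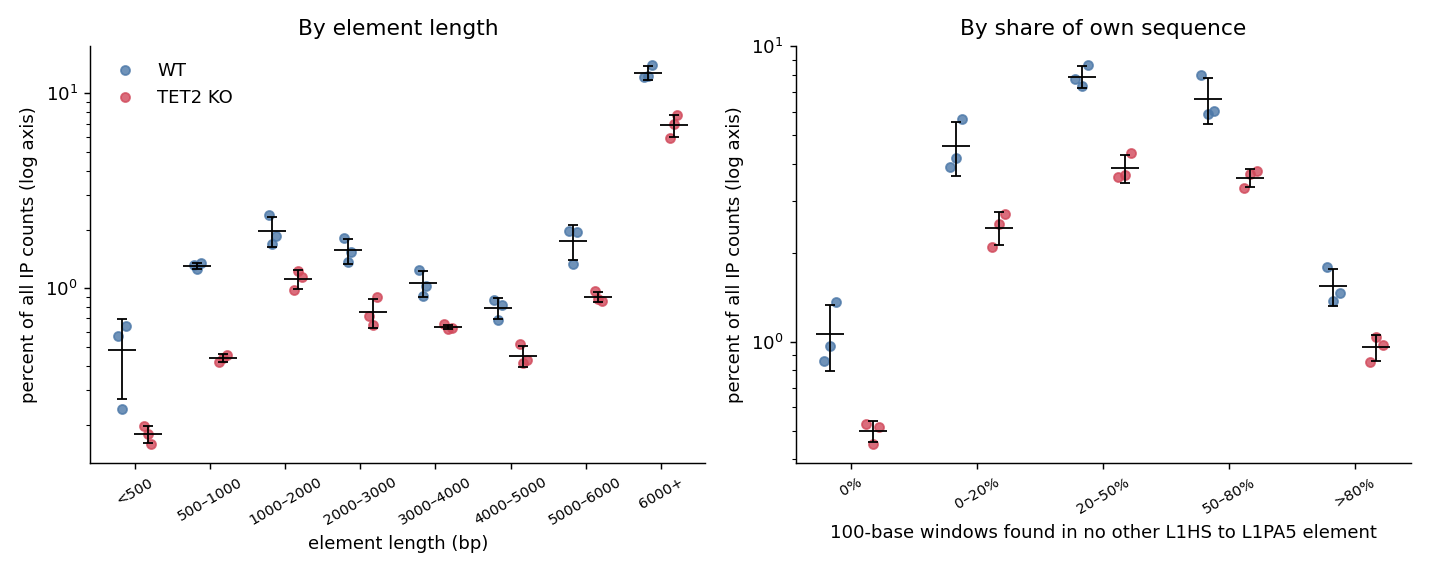
Share of all IP counts (percent, log axis) in L1HS to L1PA5 elements by element length (left) and by the percentage of their 100-base windows found in no other L1HS to L1PA5 element (right). Points are libraries, horizontal bars means and vertical bars SD (n = 3). TET2 KO points lie below the WT points in every class, with the widest gap at 500 to 1000 bp.

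Elements inside and outside genes were both lower in KO. By GENCODE release 44, 20094 elements overlapped an annotated gene, 17945 lay between genes and 1279 were on contigs outside the assembled chromosomes, which the annotation does not cover. Genic elements took 12.5%, 11.4% and 13.2% of the counts in WT and 5.9%, 6.38% and 6.66% in KO. Intergenic elements took 9.02%, 7.39% and 8.81% in WT and 3.96%, 4.56% and 5.28% in KO. The ratio of genic to intergenic counts was 1.47 ± 0.0837 in WT and 1.38 ± 0.116 in KO (SD, n = 3), with a log2 difference of −0.09 (two-sided exact permutation p = 0.4). On each of the 22 autosomes and the X chromosome the share of young L1 was lower in KO, by log2 values from −0.77 to −1.28 with a median of −0.93. The KO libraries were below all WT libraries on 22 of these 23 chromosomes, and the groups overlapped on chromosome 19. These shares are of all counts with FordPrefect included, and the separation by chromosome was not examined without it.

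Within genes, young L1 elements inserted against the direction of the gene were more numerous than those along it, and the counts went in the same order. Counts per element were not compared between the orientations. There were 10974 antisense and 7673 sense elements, and they took 6.63% ± 0.373 and 4.67% ± 0.671 of the counts in WT and 3.59% ± 0.0704 and 2.21% ± 0.225 in KO (SD, n = 3). The ratio of sense to antisense counts was 0.713, 0.636 and 0.759 in WT and 0.551, 0.662 and 0.634 in KO. The ranges overlapped and the log2 ratio differed by −0.19 (two-sided exact permutation p = 0.2). Whether reads were counted by strand is not given in the sources used here, so reads of an L1 and of the gene it lies in cannot be separated. The 872 elements that overlap an annotated exon took 1.08% ± 0.0465 of the counts in WT and 0.647% ± 0.0563 in KO, a log2 difference of −0.74.

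edgeR called no single young L1 locus, and single loci were far noisier than subfamily totals. Of the 39318 elements, 1486 passed the count filter, and these made up 47.5% of the 3127 loci tested and held 44.5% of the young L1 counts. edgeR called 0 of them, with 88 at an unadjusted p under 0.05, of which 64 were lower in KO. Of all 3127 loci, 234 (7.48%) had such a p and 95 (3.04%) were lower with it. Young L1 loci, 47.5% of those tested, were thus 88 of the 234 and 64 of the 95. They were not above this background in the total, but were above it among the loci lower in KO, a difference that was not tested. The DESeq2 Wald test called 46, of which 29 were lower and 17 higher. Over all tested loci edgeR called 0.0959% and DESeq2 5.56%. TMM takes most rows of a table as unchanged, and here close to 50% of the rows are young L1. The median log2 difference of the 1486 loci was −0.08 after TMM over loci and −0.96 with library totals, and that of all 3127 loci was 0.12 and −0.77, a shift of 0.88 between both scalings. After TMM over loci, 796 of the 1486 and 1434 of all 3127 loci were below 0. With library totals 1203 of the 1486 were below 0, on a scaling that put the median of all loci at −0.77. Among the 3180 young L1 elements with at least 50 counts, and in CPM of the library total, 509 had all KO libraries below all WT libraries and 50 had them above. Over all 12280 such elements of the table, young L1 included, 803 (6.54%) had them below and 366 (2.98%) above. The remaining spread among copies was large, and in 539 of these 3180 elements at least 90% of the counts came from 1 library. That share was 3.27% for L1HS and 45.1% for L1PA5.

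The copies with the highest mean counts show this spread. The highest L1HS copy (chr7:111243516-111249546, within an intron of IMMP2L and along the gene) had WT counts of 80.9, 142 and 284 and KO counts of 149, 45.4 and 64.8, and the groups overlapped. The next (chrX:155516017-155522048, in TMLHE) had 540, 112 and 27.4 in WT and 27.8, 13.1 and 46.8 in KO. Only 6.61% and 11.2% of their 100-base windows are found in no other young L1 element.

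The highest L1PA2 copy (chrX:64296583-64302591, in MTMR8) was dominated by single libraries in both genotypes, at 896, 46.9 and 219 in WT and 11.5, 313 and 8.75 in KO. The next (chr20:21910854-21916881, between genes) had 96% of its counts in the third WT library. The highest L1PA3 copy (chr10:35473783-35479771, in CCNY) had 87% of its counts there too. The next L1PA3 copy (chr13:86645607-86651394, between genes) had 365, 0.9 and 182 in WT and 201, 121 and 79.7 in KO, so the groups overlapped and the fitted log2 difference was 0.00 ± 1.73 (SE).

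The highest L1PA4 copy (chr11:14661316-14667833) lies along PDE3B, a cyclic nucleotide phosphodiesterase gene. Its counts were 117, 337 and 654 in WT and 13.2, 4.88 and 11.2 in KO, so every WT library was above every KO library, with a fitted log2 difference of −4.73 ± 1.44 (unadjusted p = 0.0126, adjusted p = 0.355, edgeR). The second L1PA4 copy (chr17:72877794-72878207, in SLC39A11) and the highest L1PA5 copy (on a contig assigned to chromosome 14 without a position) were short 3′ fragments with 100% and 99.1% of their counts in the third WT library, and neither passed the filter. The second L1PA5 copy (chr15:28154772-28160881, in HERC2) had 18.6, 494 and 77 in WT and 5.23, 638 and 17.4 in KO, with the second library of each genotype far above the rest.

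The tested young L1 loci with the smallest p in each direction did not pass the adjustment (adjusted p = 0.202 for each of the 4, edgeR). Their genotypes were apart in every library, but the loci were chosen by p from these same counts, so that is no separate result. A full-length L1PA3 (chr1:116051914-116058065), along the gene in SLC22A15, had 46.8, 51.6 and 254 in WT and 1.2, 0.95 and 1.47 in KO. A partial L1PA2 (chrX:87530272-87532818), against the gene in KLHL4, had 86, 13.5 and 30.7 in WT and 0.55, 2.33 and 0.66 in KO. In the other direction, an L1PA5 between genes (chrX:52170778-52176924), with MAGED4 as the nearest gene, had 1.57, 0.45 and 0.7 in WT and 37.9, 101 and 33.9 in KO. An L1PA5 annotated over 9698 bp (chr7:112731198-112740895) had no count in any WT library and KO counts of 40.9, 172 and 46.1. It overlaps LINC03076, MIPEPP1 and an annotated exon, and which part of its span the counts came from was not examined. In both of the higher loci most windows, 89.7% and 81.4%, are found in no other young L1 element, and matches to older L1 were not counted.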

How the data were processed

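The labels of the 12 libraries of the series give IP libraries of WT and KO cells, and the 6 K-562 libraries were used, 3 per genotype. By the submitters' processing notes and the methods, the authors used Trimmomatic 0.39 for trimming, HISAT2 2.1.0 for alignment to hg38, transcripts and spike-ins, Picard to drop duplicates and featureCounts to assign reads to repeat elements. The deposited values are the authors' estimated counts (expected counts), which are fractional, and the options behind this are not given in the sources used here. Duplicate removal can lower the counts of the most covered copies, and the assignment of shared reads can move counts between copies. The mouse table was not used here, and element sequences are not reported here.

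Counts were summed per subfamily, or per subfamily and length class (limit 5000 bp), rounded to whole numbers, filtered with filterByExpr, scaled by TMM over all subfamilies of the 4 classes and tested by quasi-likelihood in edgeR 4.0.16 (prior count of 2). A call is a Benjamini–Hochberg adjusted p under 0.05. The length by genotype term used the library as a block. Single values were compared by two-sided exact permutation over 20 assignments. The study calls its replicates biological, but whether they were separate cultures is not given in the sources used here, so p-values measure only the spread between these libraries. All 376 sequence names of the table were in the hg38 reference, and no element ran past the end of its sequence. Genes came from GENCODE release 44, which is not the release the authors named. Named loci are all called members, the 2 of each subfamily with the highest mean CPM and the 2 with the smallest p in each direction with at least 50 counts. The members and lists were chosen with earlier results of these data known. Alternatives were other scalings, DESeq2 1.42.0, other filters and limits, removal of the highest elements or FordPrefect, a replicate block, and leaving out each library. Counting only elements with mostly own sequence, or only assembled chromosomes, was added after seeing the data. The models were tested on simulated data. Work was done in R 4.3.3 and in Python 3.11.15 with SciPy 1.17.1, pandas 2.3.3, NumPy 2.4.6 and matplotlib 3.10.9.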

Additional observations from a re-analysis of the deposited data

How the results depend on the processing

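All 5 subfamilies stayed lower in KO in each of the 14 alternative fits, with log2 differences from −0.77 to −1.19 for L1HS, −0.97 to −1.28 for L1PA2, −0.98 to −1.24 for L1PA3, −0.75 to −0.95 for L1PA4 and −0.68 to −0.995 for L1PA5. The number called was 3, and it was 5 with the DESeq2 Wald test, 1 without FordPrefect and 0 to 2 when 1 library was left out. Over all tested subfamilies, edgeR called 6 of 573 and DESeq2 61 of 573. edgeR called 4 of 573 with library totals, 4 of 1082 with no filter, 4 of 583 without the 10 highest elements, 1 of 583 without FordPrefect, and 0 to 3 of 620 to 670 when 1 library was left out. Of the length classes 1 was called, against 2 with library totals, 10 with the DESeq2 Wald test, 0 with no filter and 0 in every fit that left out a library. Over all tested length classes, edgeR called 2 of 694 and DESeq2 82 of 694. edgeR called 1 of 694 with DESeq2 size factors, 1 of 1393 with no filter, 1 of 709 without the 10 highest elements or without FordPrefect, 4 of 694 with library totals, and 0 to 1 of 757 to 813 when 1 library was left out. No length interaction was called under any of its alternatives. Leaving out 1 library, the change of long minus short elements turned negative for some: it ran from −0.0127 to 0.1317 for L1PA2, from −0.1099 to 0.2404 for L1PA4 and from −0.0954 to 0.1671 for L1PA5, which also had −0.0004 at a limit of 6000 bp. The cause was not tested.

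The log2 difference in the young L1 share ran from −0.56 (LINE counts only) to −1.0, with −0.93 on assembled chromosomes alone, and kept its direction, as did the ratio to older L1 (−0.68 to −0.97), the genic ratio (main −0.09) and the sense ratio (main −0.19). The genic ratio was −0.03 without the third KO library and −0.15 without the first, and the sense ratio was −0.11 without the first KO library. The log2 long to short ratio ran from −0.0247 without the first WT library, the only setting in which it turned, to 0.16. Young L1 loci called numbered 0 except with the DESeq2 Wald test, with 46, where the count over all loci was 174 against 3.

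Replicate numbers were not taken as pairs in the main fits. The correlations of same-numbered libraries, each as a deviation from its group mean, were −0.06, 0.04 and −0.10. Such deviations cancel within a genotype, so these values cannot settle whether same-numbered libraries were processed together. With a replicate block 4 of the 5 young L1 subfamilies, 0 of their 10 length classes and 0 of their loci were called, where over all rows tested 7 of 573 subfamilies, 1 of 694 length classes and 3 of 3127 loci were called. The young L1 share differed by −0.94 (two-sided exact sign permutation p = 0.25, the smallest value that 3 pairs allow). At these depths single copies carry few counts, so single loci are the least certain of these values.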
